A study of Mus musculus with 16 samples.

Results

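This account follows 8 transcription factor genes in the mouse retina after optic nerve crush: the SOXC genes Sox4, Sox11 and Sox12, the Krüppel-like factor (KLF) genes Klf4, Klf6, Klf7 and Klf9, and Myc. They were chosen by name, matched by Entrez identifier to the 36528 gene identifiers of the deposited tables, and all 8 passed the filter on low counts. Optic nerve crush severs the axons of retinal ganglion cells. RNA of whole retinas was sequenced 3 days after the injury, from mice given a vehicle (MCT) or GNE-3511. That compound blocks the dual leucine zipper kinase (DLK), which relays axon damage to the nucleus, and mice received 75 mg/kg of it 60 h and 68 h after the injury. The 4 groups were uncrushed vehicle (n = 3), crushed vehicle (n = 3), uncrushed DLKi (DLK inhibitor, n = 5) and crushed DLKi (n = 5). The protocol speaks of 5 mice per drug. The labels name no genetic alteration in any group, and do not tie retinas to animals. The p-values therefore measure the spread between these libraries, and whether 2 retinas came from the same mouse is not stated. The titles do number the samples so that each crushed library is followed by an uncrushed one of the same drug. A fit with these 8 pairs as a block, added after the data were seen, is given beside the crush results whose calls it changes.

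SOXC proteins bind DNA through a high-mobility-group box, are abundant in newborn neurons, and are needed for the birth of retinal ganglion cells. KLF proteins bind GC-rich DNA through zinc fingers. In ganglion cells, KLF4 and KLF9 are known as brakes on axon growth, whereas KLF6 and KLF7 promote it. Forced expression of SOX11, KLF6 or MYC is known to aid regrowth of the injured optic nerve, and SOX11 is also known to kill some ganglion cell types. MYC heterodimerises with MAX and drives genes of growth and ribosome production.

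The 3 SOXC genes have no intron. Positions below are those of RefSeq (GRCm38.p6), and exons, lengths and overlaps those of the GENCODE vM21 annotation on the same build. Sox4 (Entrez 20677) lies on chromosome 13 at 28948919 to 28953699, Sox11 (Entrez 20666) on chromosome 12 at 27334268 to 27342718, and Sox12 (Entrez 20667) on chromosome 2 at 152393611 to 152398046. Sox11 has the longest transcript of the 8, with 8311 bases, of which 6960 are 3′ UTR and 1185 coding. Klf4 (Entrez 16600; chromosome 4, 55527137 to 55532475) has 5 exons in its longest coding transcript. Klf6 (Entrez 23849; chromosome 13, 5861489 to 5870393) and Klf7 (Entrez 93691; chromosome 1, 64029448 to 64122345) have 4 each. Klf9 (Entrez 16601; chromosome 19, 23141226 to 23168129) has 2 exons, and Myc (Entrez 17869; chromosome 15, 61985341 to 61990361) has 3. The library kit does not mark strand. Exons of the lincRNA Gm26735, on the opposite strand, overlap 54.56% of the exon bases of Sox4, and the noncoding genes Gm13748 and Gm26649 overlap 39.36% of those of Klf7. The levels of Sox4 and Klf7 may therefore include reads of these genes. The other 6 have no exon overlap with another annotated gene.

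Promoter windows from 250 bases before to 50 after the start site were taken from RefSeq (GRCm38.p6) for 7 of the 8 genes, Myc being the exception. The windows of Sox11 and Klf6 are shown because both genes rose after crush, and that of Sox4 because it gave no call. Capitals mark the letters TGACATCA on either strand, a variant of the cyclic AMP response element (CRE) like that in the Jun promoter. The windows lie at chr12:27342669-27342968 (minus strand), chr13:5861239-5861538 (plus strand) and chr13:28953650-28953949 (minus strand), and read 5′ to 3′:
Sox11: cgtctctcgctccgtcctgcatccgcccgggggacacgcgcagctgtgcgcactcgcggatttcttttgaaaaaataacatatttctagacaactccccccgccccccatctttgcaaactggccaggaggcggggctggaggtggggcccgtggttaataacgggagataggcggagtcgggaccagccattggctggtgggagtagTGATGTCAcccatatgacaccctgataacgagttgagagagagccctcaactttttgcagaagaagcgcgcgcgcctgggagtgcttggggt
Klf6: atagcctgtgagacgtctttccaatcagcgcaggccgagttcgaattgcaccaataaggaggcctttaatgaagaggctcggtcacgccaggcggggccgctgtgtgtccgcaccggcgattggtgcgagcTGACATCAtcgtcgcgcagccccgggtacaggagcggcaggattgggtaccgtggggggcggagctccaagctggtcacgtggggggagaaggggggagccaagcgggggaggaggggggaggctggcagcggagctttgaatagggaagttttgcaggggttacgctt
Sox4: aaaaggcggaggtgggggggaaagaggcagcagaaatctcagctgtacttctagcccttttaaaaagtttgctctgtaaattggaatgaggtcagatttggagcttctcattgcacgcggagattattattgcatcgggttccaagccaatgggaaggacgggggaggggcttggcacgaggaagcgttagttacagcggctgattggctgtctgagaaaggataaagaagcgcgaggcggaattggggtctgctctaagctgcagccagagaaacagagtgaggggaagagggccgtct
The variant occurred once in Sox11, beginning at -42 from the start site, and once in Klf6, at -119. It was in none of the other 5 windows, and in 3.62% of all 32851 promoter windows. It was chosen after these sequences had been read. Neither the CRE TGACGTCA (1.79% of all windows) nor the AP-1 letters TGANTCA (7.81%) occurred in the Sox11 or Klf6 window, and Klf9 alone of the 7 held the latter, as TGAATCA. The E-box CACGTG (7.15%) was in Klf4 and Klf6. The GC box GGGCGG (35.7%) was in Sox11, Sox12, Klf4, Klf6 and Klf7, and the CCAAT box CCAAT (37.4%) in Sox4, Sox11, Sox12, Klf6 and Klf9. The STAT letters TTCNNNGAA (8.30%) were in Klf9. Each motif was searched on both strands, TGACATCA does not itself hold any of the other motifs, and a match is a description of letters and not a site shown to be bound.

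The libraries held 22.4 to 44.7 M counted reads. Rod genes dominated, as in retina, with a mean summed level of 14190 to 15580 nRPKM (RPKM scaled by the authors with a size factor per library) per group over 8 markers. Summed ganglion cell markers (16 genes) ran from 453 to 628.5 nRPKM in uncrushed and 279 to 392 in crushed vehicle libraries. They ran from 560 to 746 in uncrushed and 361 to 434 in crushed DLKi libraries. In bulk tissue, fewer cells of a type and less RNA per cell cannot be told apart. Uncrushed vehicle replicate 1 was the shallowest library and had 4.54% mitochondrial counts, against at most 3.13% elsewhere. Lens genes, which mark carried-over tissue, summed to over 100 nRPKM in 4 libraries, all uncrushed (vehicle replicate 2 and DLKi replicates 2, 3 and 5).

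Levels between genes are compared per length, in nRPKM. In uncrushed vehicle retina Klf9 was highest at 30.1 ± 4.15 nRPKM (SD, n = 3), followed by Sox12 at 8.92 ± 0.640, Klf6 at 5.51 ± 0.275, Sox4 at 3.36 ± 0.921 and Klf7 at 2.94 ± 0.206. Klf4 stood at 0.610 ± 0.140, Myc at 0.380 ± 0.0479 and Sox11 at 0.279 ± 0.0369. Only Sox4 and Klf7 had overlapping ranges among neighbours in this order. In crushed vehicle retina Sox11 moved up to 2.39 ± 0.344 nRPKM, where its range overlapped that of Klf7, and Klf6 reached 8.85 ± 0.753, where its range overlapped that of Sox12. Myc, at 0.851 ± 0.0956, then stood above Klf4, at 0.591 ± 0.0718, with no overlap.

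**Figure D1:**
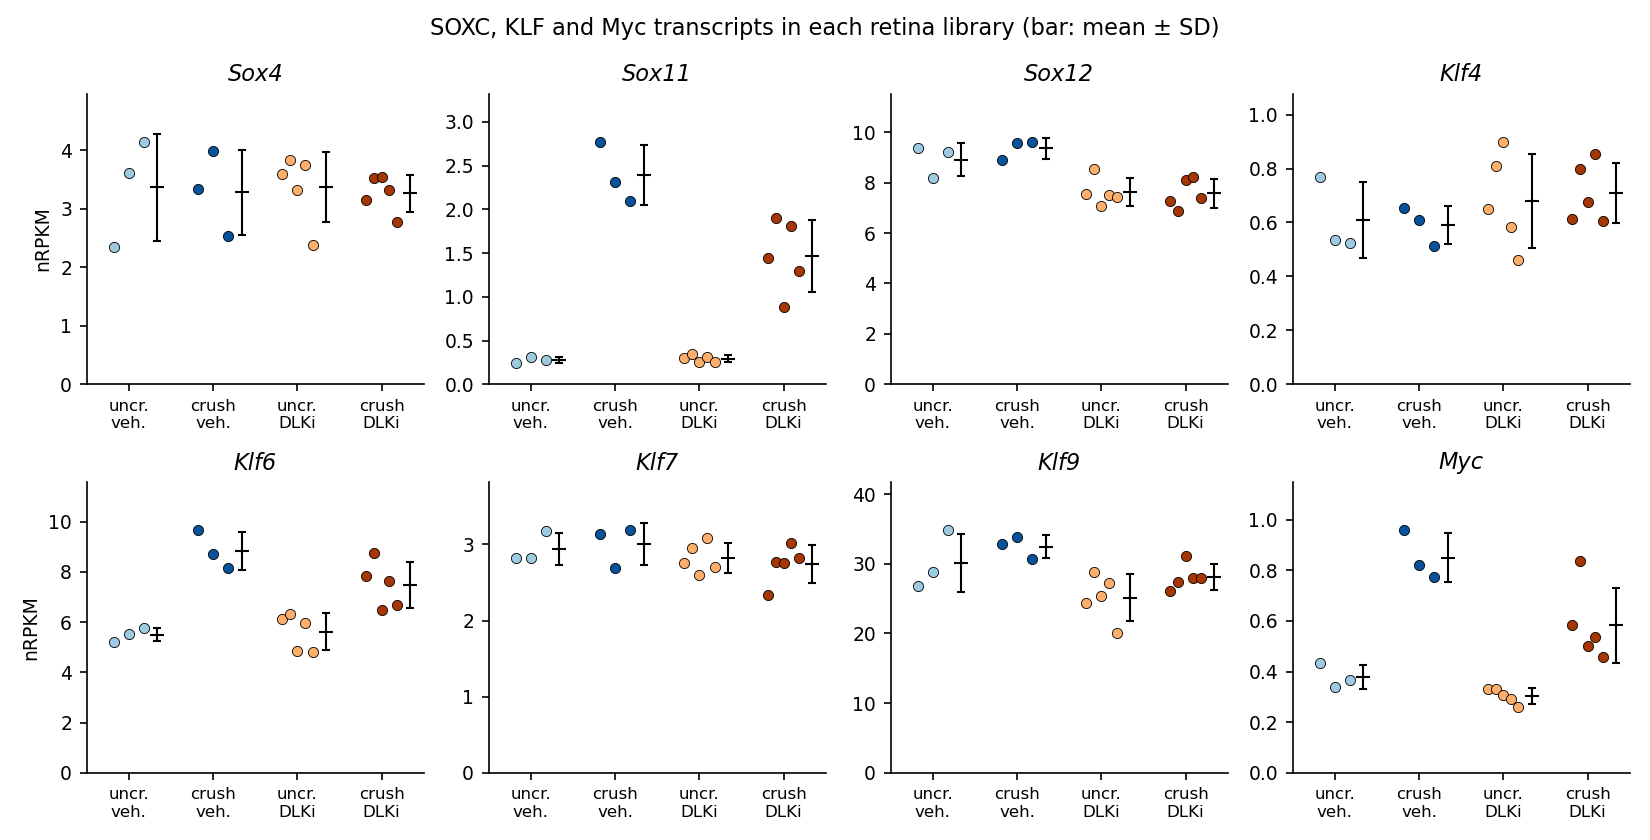
Level of each gene in nRPKM (vertical axis, from 0) in every library of the 4 groups (points, left to right in replicate order), with the mean ± SD beside them. Sox11, Klf6 and Myc stand higher in both crushed groups, and Klf9 is the most abundant gene throughout, at 20 to 34.8 nRPKM.

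Among the SOXC genes, Sox11 alone rose after crush. With vehicle, its level was 0.241, 0.315 and 0.281 nRPKM in the uncrushed libraries and 2.77, 2.31 and 2.10 in the crushed ones. Every crushed library lay above every uncrushed one. The log2 change was 3.09 ± 0.23 (SE), a fold of 8.49 (adjusted p = 4.65e-07). Here and below, tests are edgeR quasi-likelihood tests on counts, with p-values Benjamini-Hochberg adjusted over all 19391 tested genes, and genes with an adjusted p of 0.05 or less count as called. With the inhibitor, Sox11 stood at 0.304, 0.343, 0.255, 0.309 and 0.252 nRPKM in uncrushed and at 1.44, 1.90, 0.883, 1.80 and 1.30 in crushed libraries. The groups again did not overlap, and the log2 change was 2.32 ± 0.18 (5.00-fold, edgeR adjusted p = 2.6e-07). The crushed DLKi libraries were more unequal than the crushed vehicle libraries: the lowest, replicate 3, held 286 Sox11 reads and the highest, replicate 2, held 681.

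Sox4 and Sox12 gave no call after crush. Sox4, the SOXC gene known for roles in neuronal survival and differentiation, stood at 2.35, 3.60 and 4.14 nRPKM in uncrushed vehicle and 3.34, 3.98 and 2.53 in crushed vehicle libraries. The 2 groups overlapped across most of their ranges. Its log2 change was -0.04 with a 95% interval of -0.46 to 0.38 with vehicle, and -0.05 (-0.37 to 0.27) with the inhibitor. Sox12, the least studied of the family and the most abundant here, stood at 9.37, 8.19 and 9.20 nRPKM in uncrushed and 8.89, 9.59 and 9.62 in the crushed libraries with vehicle. Its log2 change was 0.07 (-0.10 to 0.24) with vehicle and -0.01 (-0.14 to 0.12) with the inhibitor. With the inhibitor Sox4 ranged from 2.37 to 3.83 nRPKM without and 2.77 to 3.54 with crush, and Sox12 from 7.09 to 8.56 and 6.87 to 8.24. The interval of Sox4 with vehicle was the widest of these 4. All describe whole retina and do not bear on a change within a rare cell type.

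Sox11 made up 2.23 ± 0.325% of the summed SOXC level in uncrushed vehicle retina and 15.9 ± 2.21% in crushed vehicle retina (SD, n = 3 each). With the inhibitor this share was 2.58 ± 0.129% without and 11.9 ± 3.12% with crush (n = 5 each). Sox12 remained the largest share in all groups, at 61.6% to 71.2% on average. The summed SOXC level was 12.6 ± 0.922, 15.0 ± 0.823, 11.3 ± 1.01 and 12.3 ± 0.719 nRPKM in uncrushed vehicle, crushed vehicle, uncrushed DLKi and crushed DLKi retina.

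**Figure D2:**
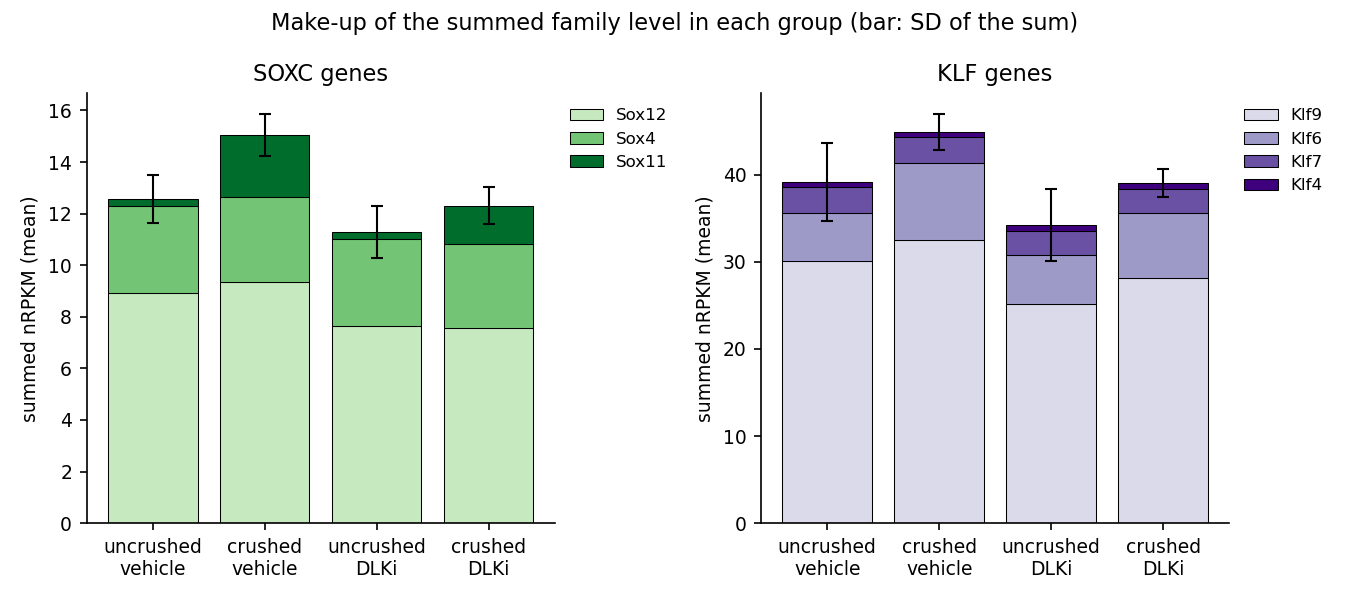
Stacked mean nRPKM (vertical axis, from 0) of the SOXC genes (left) and of the 4 KLF genes (right) in each group, with the SD of the sum over libraries. Sox11 grows from a thin band to 15.9% of the SOXC level in crushed vehicle retina, and Klf9 makes up over 70% of the KLF level in each group on average.

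Among the KLF genes, Klf6 alone rose. Klf6, a growth-promoting factor also induced in other injured tissues, stood at 5.22, 5.54 and 5.76 nRPKM in uncrushed and 9.65, 8.73 and 8.16 in the crushed libraries with vehicle. The groups did not overlap. Its log2 change was 0.68 ± 0.12, or 1.61-fold (edgeR adjusted p = 0.00342). With the inhibitor it stood at 6.12, 6.33, 4.84, 5.98 and 4.82 in uncrushed and 7.84, 8.75, 6.49, 7.65 and 6.66 in crushed libraries. The crushed libraries all lay above the uncrushed ones, by a narrow margin between 6.33 and 6.49. The log2 change was 0.42 ± 0.09, or 1.34-fold (edgeR adjusted p = 0.011).

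Klf7, the close relative of Klf6, gave no call. It stood at 2.82, 2.82 and 3.18 nRPKM in uncrushed and 3.14, 2.69 and 3.18 in the crushed libraries with vehicle, with overlapping groups. The log2 change was 0.03 (95% interval -0.19 to 0.25) with vehicle and -0.04 (-0.20 to 0.13) with the inhibitor. No test compared Klf6 with Klf7 directly, but the 95% intervals of the 2 genes did not overlap in either comparison. Klf4, the growth-suppressing factor, was scarce, at 47 to 124 reads per library. It stood at 0.770, 0.535 and 0.523 nRPKM in uncrushed and 0.652, 0.608 and 0.512 in the crushed libraries with vehicle, and its log2 change was -0.02 (-0.52 to 0.47). With the inhibitor the log2 change of Klf4 was 0.06 (-0.31 to 0.42). Klf9, the other growth-suppressing factor and a gene known to respond to glucocorticoids and thyroid hormone, stood at 26.8, 28.9 and 34.8 nRPKM in uncrushed and 32.8, 33.9 and 30.7 in the crushed libraries with vehicle. The groups overlapped, and the log2 change was 0.11 (-0.13 to 0.34) with vehicle and 0.16 (-0.02 to 0.35) with the inhibitor. Neither growth-suppressing gene gave a call in whole retina. With the inhibitor, levels without and with crush were 0.461 to 0.899 and 0.607 to 0.853 nRPKM for Klf4, 2.60 to 3.09 and 2.34 to 3.02 for Klf7, and 20 to 28.8 and 26.1 to 31.1 for Klf9, which overlapped for each gene.

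Myc rose from a low level. It stood at 0.433, 0.339 and 0.368 nRPKM in uncrushed and 0.958, 0.821 and 0.774 in the crushed libraries with vehicle, which do not overlap. The log2 change was 1.18 ± 0.21, or 2.26-fold (edgeR adjusted p = 0.0042). With the inhibitor Myc stood at 0.332, 0.331, 0.306, 0.292 and 0.259 in uncrushed and 0.583, 0.836, 0.500, 0.536 and 0.458 in crushed libraries. Crushed DLKi replicate 2 was highest, and all 5 crushed libraries lay above the uncrushed ones. The log2 change was 0.94 ± 0.17, or 1.92-fold (edgeR adjusted p = 0.00206). These values rest on few reads, 23 to 85 per library.

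In all, 3 of the 8 genes were called higher and 0 lower after crush with vehicle, where 1.77% of all tested genes were called higher and 0.861% lower. With the inhibitor the same 3 were called higher and 0 lower, against 3.29% and 2.04% of all tested genes. The vehicle groups did not overlap in nRPKM for these 3 genes, as for 12.9% of all tested genes, and the inhibitor groups did not overlap for them either, as for 6.70%. The median log2 change of the 8 was 0.09 with vehicle and 0.11 with the inhibitor, beside 0.00 for all tested genes in both. With the pair block the same 3 genes were called after crush with vehicle (edgeR adjusted p = 5.27e-09 for Sox11, 1.72e-05 for Klf6 and 0.00256 for Myc), and 3.81% of all tested genes were called higher and 2.56% lower. With the inhibitor the block also called these 3 (edgeR adjusted p = 5.39e-09 for Sox11, 5.94e-05 for Klf6 and 0.00183 for Myc). Of all tested genes it then called 5.43% higher and 5.3% lower. Each of the 6 calls made without the block was kept when any library was left out in turn. Without the 4 libraries rich in lens transcripts, which leaves 2 uncrushed libraries for each drug, Sox11 kept both calls and Klf6 kept that with vehicle. Myc then had adjusted p = 0.0745 (log2 change 1.10) with vehicle and 0.122 (0.90) with the inhibitor, and Klf6 had 0.289 (0.30) with the inhibitor. Summed microglia and macrophage markers (10 genes) also differed with crush, with vehicle from 19.5 to 19.9 nRPKM without and 32.6 to 40.4 with crush, and with the inhibitor from 14.8 to 22.6 and 24.7 to 48.5. Summed astrocyte and gliosis markers (5 genes) were 23.1 to 25.6, 55.9 to 66.7, 16 to 37.0 and 33.6 to 88.7 in the same order. Their part in the rise of Sox11, Klf6 and Myc was not tested.

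**Figure D3:**
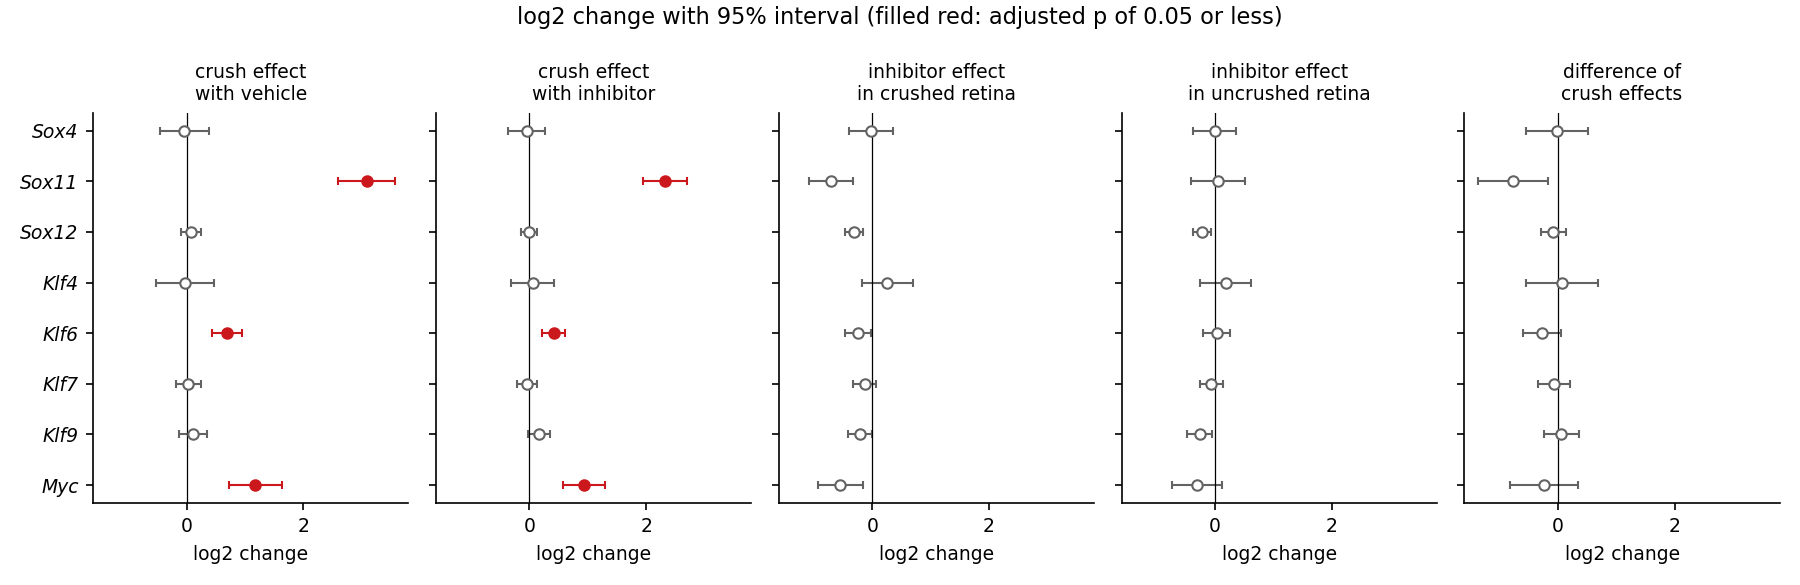
log2 change (horizontal axis) of each gene in the 5 comparisons, with its 95% interval, filled red where the adjusted p was 0.05 or less. Sox11, Klf6 and Myc are called in both crush comparisons, and none of the 8 in the comparisons of inhibitor with vehicle or in the difference of crush effects.

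The inhibitor was next compared with vehicle within crushed retina. None of the 8 genes passed, while 0.129% of all tested genes were called higher and 0.376% lower. The levels of Sox11 did not overlap between the groups, at 0.883 to 1.90 nRPKM in the 5 crushed DLKi and 2.10 to 2.77 in the 3 crushed vehicle libraries. Its log2 difference was -0.71 ± 0.18, or 61.2% of the vehicle level (edgeR adjusted p = 0.0872). Sox12 did not overlap either, at 6.87 to 8.24 nRPKM against 8.89 to 9.62 (log2 difference -0.31 ± 0.07, edgeR adjusted p = 0.0695). Groups that do not overlap were found for 9.55% of all tested genes in this comparison. By DESeq2 both genes passed, with adjusted p = 0.0161 for Sox11 and 0.0109 for Sox12. Over the other settings tried, with edgeR and limma, the adjusted p was above 0.05 and reached 0.288 and 0.312. Myc stood at 0.458 to 0.836 against 0.774 to 0.958 nRPKM (log2 difference -0.54 ± 0.18, edgeR adjusted p = 0.196) and Klf6 at 6.49 to 8.75 against 8.16 to 9.65 (-0.24 ± 0.11, adjusted p = 0.325). Both overlapped. Klf4 (0.26 ± 0.21), Klf7 (-0.13 ± 0.09), Klf9 (-0.21 ± 0.10) and Sox4 (-0.01 ± 0.18) had edgeR adjusted p of 0.365 to 0.979. Of the 8 differences 7 were negative, with a median of -0.23 beside 0.01 for all tested genes. Marker lists of several cell types moved in this comparison. Rod (7 of 8, median log2 difference 0.04) and lens (7 of 9, 0.43) markers were mostly positive, with 0 called in each. Ganglion cell markers were positive in 16 of 16 cases (3 called, median log2 difference 0.29), bipolar in 7 of 8 (0 called, 0.19), amacrine in 6 of 7 (0 called, 0.17), and retinal pigment epithelium markers were negative in 6 of 7 (0 called, -0.32). Crushed vehicle replicate 3 was the lowest of its group, with ganglion cell markers summing to 279 nRPKM against 354 and 392. Its amacrine sum was 176 against 235 and 239, where the crushed DLKi libraries held 225 to 259. Bipolar sums were 298 to 321 in crushed vehicle and 334 to 372 in crushed DLKi libraries. By sample number crushed vehicle replicate 3 pairs with uncrushed vehicle replicate 1 (r = 0.438). The part of these marker lists in the differences of Sox11 and Sox12 was not tested.

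In uncrushed retina the inhibitor likewise gave no call among the 8, with 0.263% of all tested genes called higher and 0.366% lower. Sox11 had a log2 difference of 0.06 ± 0.22 here (95% interval -0.41 to 0.52), at 0.252 to 0.343 nRPKM with the inhibitor and 0.241 to 0.315 with vehicle. Sox12 had a log2 difference of -0.23 ± 0.07 (edgeR adjusted p = 0.145), of the same sign as in crushed retina. Klf9, at 20 to 28.8 against 26.8 to 34.8 nRPKM, had -0.26 ± 0.10 (edgeR adjusted p = 0.198). Myc did not overlap, at 0.259 to 0.332 against 0.339 to 0.433 nRPKM (-0.31 ± 0.20, edgeR adjusted p = 0.452). It was the 1 of the 8 without overlap, as were 9.55% of all tested genes. Marker lists again moved on both sides, with 0 called in each. Ganglion cell (16 of 16, median 0.28), bipolar (8 of 8, 0.18) and amacrine (7 of 7, 0.22) markers were positive, and microglia (10 of 10, -0.22) and pigment epithelium markers (7 of 7, -0.74) negative. Lens markers were positive in 8 of 9 cases, with the largest median, 1.18. Their sums ran from 21.6 to 250.5 nRPKM with vehicle and from 35.5 to 528 with the inhibitor. The genes of a list share the same libraries. Uncrushed vehicle replicate 1 stood apart, with ganglion cell markers summing to 453 nRPKM against 616 and 628.5 in replicates 2 and 3. Its amacrine sum was 152 against 223 and 242, and its pigment epithelium sum 309 against 103 and 50.6. For the ganglion cell, amacrine and pigment epithelium lists replicates 2 and 3 lay within the range of the uncrushed DLKi libraries, but for bipolar markers below it.

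Whether crush acted differently under the inhibitor was asked of each gene by the difference of the crush effects. None of the 8 was called, nor were more than 0.0103% of all tested genes. For Sox11 the crush effect with the inhibitor minus that with vehicle was -0.76 ± 0.28 on the log2 scale (95% interval -1.36 to -0.16, edgeR adjusted p = 0.9998). The interval of this difference does not reach 0, but it is not adjusted for the number of genes. The 95% intervals of the other 7 held 0, with Klf6 (-0.27 ± 0.15) and Myc (-0.24 ± 0.27) also negative. These intervals are wide for Myc and Klf4, spanning -0.82 to 0.34 and -0.54 to 0.69. The crush and inhibitor comparisons share libraries and are not independent of each other.

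Of the other SOX genes, 12 of 16 were tested and 1 rose, with both drugs: Sox30, best known from the testis, whose level with vehicle was 0.446 ± 0.0443 nRPKM without and 0.706 ± 0.0441 with crush (log2 change 0.67 ± 0.15, edgeR adjusted p = 0.0231). With the inhibitor Sox30 rose by 0.79 ± 0.12 (edgeR adjusted p = 0.000448). Its call with vehicle was lost without any 1 of the 3 crushed vehicle libraries or of replicates 2 and 3 of uncrushed vehicle, reaching adjusted p = 0.144 over all settings. Of the other KLF genes 10 of 13 were tested, and 0 were called after crush with either drug. With vehicle the smallest p values were those of the erythroid factor Klf1 (log2 change -1.07 ± 0.48, edgeR adjusted p = 0.432) and of Klf3, a repressor (0.14 ± 0.12, adjusted p = 0.846). Klf11 was lower with the inhibitor in uncrushed retina, at 1.02 ± 0.119 against 1.62 ± 0.237 nRPKM (log2 difference -0.68 ± 0.13, edgeR adjusted p = 0.0264). That call was lost without uncrushed vehicle replicate 2 or 3 or uncrushed DLKi replicate 3 or 4, with adjusted p up to 0.277 over all settings. With the pair block 3 of the 12 other SOX genes rose with vehicle, the glial factors Sox8 (0.37 ± 0.07, edgeR adjusted p = 0.00566) and Sox9 (0.36 ± 0.06, adjusted p = 0.0015) beside Sox30, and again 0 of the other KLF genes. With the inhibitor the block likewise added Sox8 (0.35 ± 0.05, edgeR adjusted p = 0.000561) and Sox9 (0.31 ± 0.04, adjusted p = 0.00024) to Sox30. After crush 1.77% of all tested genes were called higher with vehicle and 3.29% with the inhibitor. With the block these shares were 3.81% and 5.43%. Of the related SP genes, 6 of 9 were tested and 0 called in any comparison. The median log2 change after crush with vehicle was 0.06 for the other SOX, -0.01 for the other KLF and 0.01 for the SP genes.

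Partners and targets of MYC gave no calls in any of the 4 pairwise comparisons without the block. The 12 network genes had a median log2 change of 0.03 after crush with vehicle. The smallest p values there were those of the glucose-sensing factor Mlxipl (0.64 ± 0.33, edgeR adjusted p = 0.566) and of Mnt, a repressor that competes with MYC for MAX (0.12 ± 0.08, adjusted p = 0.737). Of 22 MYC target genes 0 were called after crush with either drug. Their median was 0.06 with vehicle and 0.04 with the inhibitor, and the smallest p belonged to the transferrin receptor gene Tfrc (-0.28 ± 0.08 with vehicle, edgeR adjusted p = 0.0755) and, next, to Cad, an enzyme of pyrimidine synthesis (0.17 ± 0.07, adjusted p = 0.345). In the fit with the pair block 1 of the 22 targets was called with vehicle, Tfrc, which fell (-0.28 ± 0.06, edgeR adjusted p = 0.0114). Tfrc was also the 1 target called with the inhibitor in that fit (-0.20 ± 0.05, edgeR adjusted p = 0.013). These counts lie near the shares of all tested genes called, given above, and say nothing particular of these targets.

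Of genes linked to SOXC in developing neurons, with vehicle 2 of 12 fell and 0 rose: the ganglion cell factors Pou4f2 (log2 change -1.77 ± 0.29, edgeR adjusted p = 0.00168) and Pou4f1 (-1.45 ± 0.24, adjusted p = 0.0021), which are also on the ganglion cell marker list. With the inhibitor Pou4f2 (-0.78 ± 0.21, edgeR adjusted p = 0.0316) and Tubb3, the neuronal tubulin gene (-0.83 ± 0.15, adjusted p = 0.00164), fell, and 0 rose. Tubb3 fell with vehicle as well in the fit with the pair block (-0.68 ± 0.07, edgeR adjusted p = 6.46e-05). That fit also called Pou4f1 lower with the inhibitor (-0.33 ± 0.09, edgeR adjusted p = 0.0249). Without the block, 0.861% of all tested genes were called lower with vehicle and 2.04% with the inhibitor. With the block these shares were 2.56% and 5.3%. Between the drugs in crushed retina, Pou4f1 was higher with the inhibitor, at 6.11 ± 1.11 against 2.31 ± 0.916 nRPKM (1.39 ± 0.23, edgeR adjusted p = 0.0108), as was Pou4f2 (1.37 ± 0.27, adjusted p = 0.0277). The calls of Pou4f1 and Pou4f2 with vehicle were lost when only those 2 groups were fitted (adjusted p = 0.06 and 0.067). That of Pou4f2 with the inhibitor was lost without any 1 of crushed DLKi replicates 1, 2, 4 and 5 and uncrushed DLKi replicates 1, 2, 3 and 4 (adjusted p up to 0.171 over all settings). In crushed retina the call of Pou4f1 was lost without crushed vehicle replicate 1 (adjusted p = 0.0565), and that of Pou4f2 without crushed vehicle replicate 1 or 3 or crushed DLKi replicate 2, 3 or 5 (up to 0.188).

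The list of genes linked to the 4 KLF factors was, like that linked to SOXC, chosen with earlier results of these data known. It shares Dcx with the list linked to SOXC and Stat3 with the last list below. The counts of these lists are therefore no independent evidence about the factors. Of all tested genes 1.77% were called higher and 0.861% lower after crush with vehicle, and 3.29% and 2.04% with the inhibitor. With the pair block these shares were 3.81% and 2.56% with vehicle, and 5.43% and 5.3% with the inhibitor. With vehicle 4 of 12 rose and 0 fell: the cell cycle inhibitor Cdkn1a (1.87 ± 0.16, edgeR adjusted p = 2.21e-06), Stat3, which KLF4 is known to bind (1.12 ± 0.11, adjusted p = 7.74e-06), the growth cone gene Gap43 (0.77 ± 0.13, adjusted p = 0.00191) and the cytokine signalling inhibitor Socs3 (1.30 ± 0.24, adjusted p = 0.00456, or 0.0547 without the lens-rich libraries). With the inhibitor the same 4 rose (Gap43 and Socs3 not without the lens-rich libraries, with adjusted p = 0.102 and 0.0717), and Mapk10, encoding the kinase JNK3, fell (-0.45 ± 0.10, edgeR adjusted p = 0.0118, or 0.14 without the lens-rich libraries). With the pair block Mapk10 fell with vehicle too (-0.35 ± 0.06, edgeR adjusted p = 0.00197). Ngfr, the p75 neurotrophin receptor gene, rose with vehicle in that fit (0.35 ± 0.08, edgeR adjusted p = 0.0134), for 5 higher and 1 lower of 12. With the inhibitor the block did not call Ngfr (0.18 ± 0.06, edgeR adjusted p = 0.0777). In crushed retina 2 were lower with the inhibitor: Dusp14, a phosphatase gene known as a target of KLF9, at 5.66 ± 0.288 against 7.05 ± 0.165 nRPKM (-0.32 ± 0.07, edgeR adjusted p = 0.0393), and Cdkn1a (-0.67 ± 0.13, adjusted p = 0.0287). The call of Cdkn1a in that comparison was lost without any 1 of the 3 crushed vehicle libraries or crushed DLKi replicate 1, 3, 4 or 5, and that of Dusp14 without any 1 of the 3 crushed vehicle libraries, crushed DLKi replicates 2 to 5, uncrushed vehicle replicates 2 and 3 or uncrushed DLKi replicates 1 and 4 (adjusted p up to 0.134 and 0.152 over all settings). Of 16 glucocorticoid and thyroid hormone response genes, which bear on Klf9, only the metallothionein gene Mt2 was called after crush without the block (rising by 1.08 ± 0.27 with vehicle, edgeR adjusted p = 0.038; 1.16 ± 0.21 with the inhibitor, adjusted p = 0.00187). Its call with vehicle was lost without any 1 of the 3 crushed vehicle libraries, uncrushed vehicle replicates 2 and 3 and uncrushed DLKi replicate 4 (adjusted p up to 0.21 over all settings), and that with the inhibitor without the lens-rich libraries (0.09). With the pair block 2 of the 16 rose and 2 fell with vehicle: beside Mt2, the phosphatase gene Dusp1 rose (0.36 ± 0.07, edgeR adjusted p = 0.00672), and Tsc22d3, a glucocorticoid-induced leucine zipper gene (-0.27 ± 0.06, adjusted p = 0.018), and Sgk1, a kinase gene induced by glucocorticoids (-0.21 ± 0.05, adjusted p = 0.033), fell. After crush with the inhibitor the block gave 2 higher and 2 lower as well. Dusp1 rose (0.32 ± 0.06, edgeR adjusted p = 0.001455) beside Mt2, and Tsc22d3 (-0.30 ± 0.05, adjusted p = 0.000616) and Thra (-0.26 ± 0.04, adjusted p = 0.000729) fell. Sgk1 was lower with the inhibitor in uncrushed retina (-0.37 ± 0.07, edgeR adjusted p = 0.0332), a call lost without any 1 of the 3 uncrushed vehicle libraries, uncrushed DLKi replicates 1, 3 and 4 or crushed DLKi replicate 1 (up to 0.275 over all settings).

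The last list held other transcription factors associated with regeneration. Of 16 tested, 6 rose and 0 fell with vehicle, with a median log2 change of 0.46, and 7 rose and 0 fell with the inhibitor, with a median of 0.23. The shares of all tested genes called higher were 1.77% with vehicle and 3.29% with the inhibitor. With vehicle the 4 with the smallest p were Atf3 (2.78 ± 0.21, edgeR adjusted p = 4.65e-07), Stat3 (value above), Cebpd (1.55 ± 0.25, adjusted p = 0.00171) and Jun (0.97 ± 0.17, adjusted p = 0.00238). Named because their calls were the least stable, Nfil3 with vehicle kept its call in 8 of 26 alternative settings, and Fosl2, Smad1 and Creb1 with the inhibitor kept theirs in 18, 19 and 21. The pair block raised the count to 9 of 16 with vehicle, and also to 9 with the inhibitor. It raised the shares of all tested genes called higher as well, to 3.81% and 5.43%. Of these 16, Atf3 was lower with the inhibitor in crushed retina (-1.26 ± 0.17, edgeR adjusted p = 0.00226), a call kept in each of the 25 settings that give this comparison. Jun was lower with it in uncrushed retina (-0.69 ± 0.15, edgeR adjusted p = 0.0402), a call lost without any 1 of the 3 uncrushed vehicle libraries, uncrushed DLKi replicates 1, 3, 4 and 5, crushed vehicle replicate 1 or crushed DLKi replicate 1 (adjusted p up to 0.338 over all settings). Several of these genes were known to rise in these libraries when the list was written, so the list is no independent evidence of direction.

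**Figure D4:**
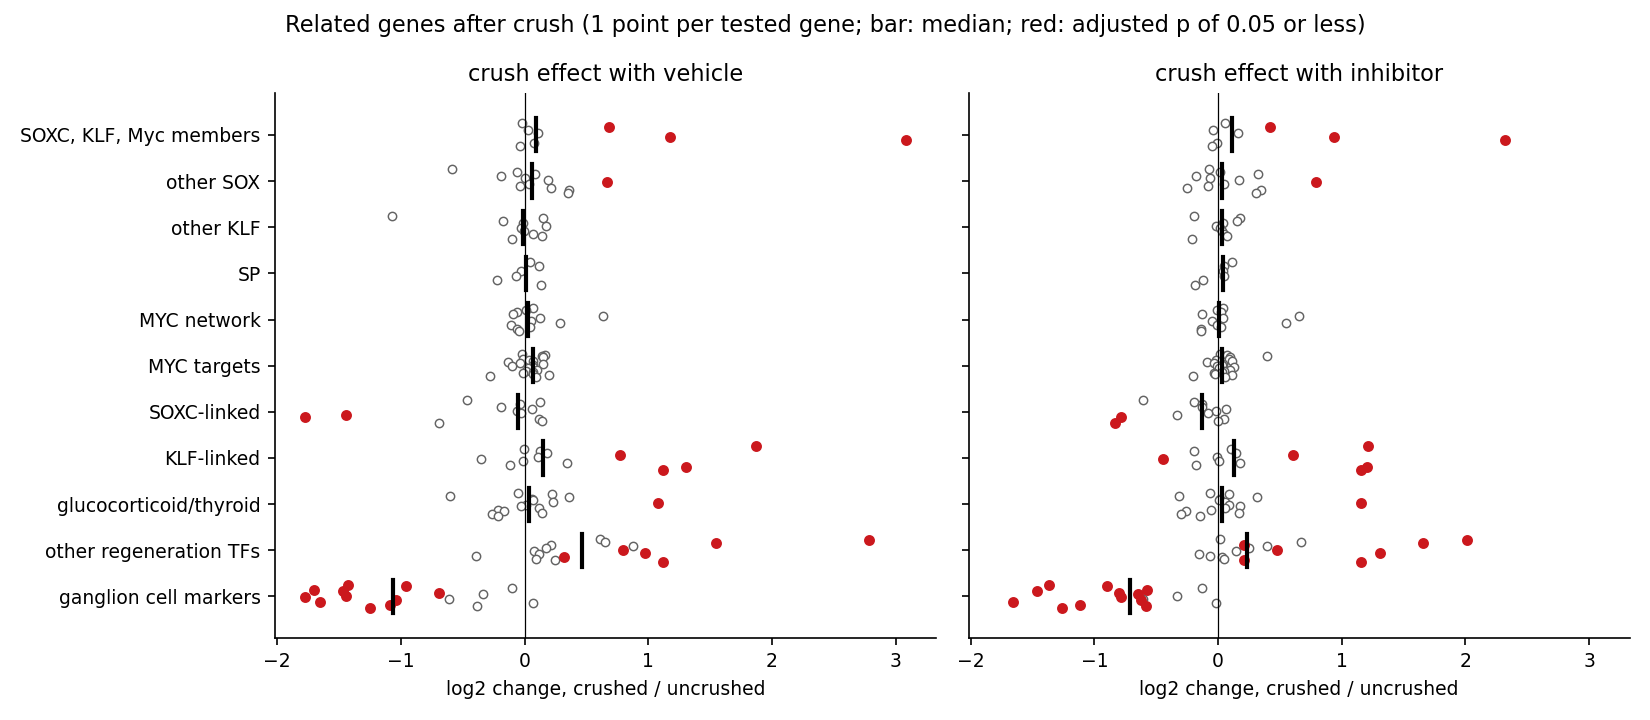
log2 change after crush (horizontal axis) of every tested gene of the related lists, with vehicle (left) and inhibitor (right). Points are genes, black bars list medians, and red points genes with an adjusted p of 0.05 or less; the family lists centre near 0, whereas 11 of 16 ganglion cell markers fell with vehicle.

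The genes whose pattern over the 16 libraries came closest to each called member were named by the root mean square difference in centred log2 CPM, among 13716 genes. For Sox11 they were Tnfrsf12a, encoding the TWEAK receptor (difference 0.31), Atf3 (0.37) and Lad1, a basement membrane filament gene (0.37), where Sox11's own spread was 1.33. The log2 changes of Tnfrsf12a were 2.51 after crush with vehicle and 2.12 with the inhibitor. For Klf6 they were the Notch target Hey2 (0.10), the GTPase gene Rhoq (0.10) and the cytokine receptor gene Il6st, encoding gp130 (0.11), where its own spread was 0.31. For Myc they were Tes (0.19), Antxr2 (0.19) and Klhl29 (0.20), where its own spread was 0.56.

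The order of libraries within groups was compared between the 3 genes that rose. In crushed vehicle retina replicate 1 was highest and replicate 3 lowest for Sox11, Klf6 and Myc, as for Klf4. In uncrushed vehicle retina the orders differed, with replicate 1 lowest for Sox11 and Klf6 and highest for Myc. In crushed DLKi retina replicate 2 was highest for all 3, while replicate 3 was lowest for Sox11 and Klf6 and replicate 5 for Myc. In uncrushed DLKi retina replicate 5 was lowest for all 3, and for Sox4, Klf4 and Klf9 too. That library had the highest lens sum, at 528 nRPKM against 35.5 to 339 in the other uncrushed DLKi libraries. The part of lens tissue in its low values was not tested. The summed astrocyte and gliosis markers were highest in crushed DLKi replicate 2, at 88.7 nRPKM, and lowest in replicate 5, at 33.6. Summed microglia and macrophage markers were highest in crushed DLKi replicate 1, at 48.5, and lowest in replicate 5, at 24.7. In crushed vehicle retina the gliosis sum was highest in replicate 2, at 66.7, and lowest in replicate 1, at 55.9. The microglia and macrophage sum there was highest in replicate 2, at 40.4, and lowest in replicate 3, at 32.6. The part of either list in these orders was not tested.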

How the data were processed

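Poly(A) RNA of 16 mouse retinas was sequenced. Per the submitters' processing notes, reads were aligned with GSNAP to GRCm38, with version and annotation not given in the sources used. Per the file headers, each deposited table holds the count of uniquely aligned reads per gene and nRPKM, an RPKM that the authors adjusted by a size factor per library, whose making is not stated. Totals were 22.4 to 44.7 M counts. Entrez identifiers were matched to RefSeq symbols (31049 of 36528; the rest held at most 1.22% of counts).

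Counts were tested with edgeR 4.0.16 (R 4.3.3; TMM, filterByExpr, quasi-likelihood F tests, two-sided) in 1 model of the 4 groups, with Benjamini-Hochberg adjustment over 19391 genes. The model was also run on simulated counts, drawn with rates and dispersions from these data and independently for each library, without the pairing described below. Levels are nRPKM. Replicates were numbered in accession order, and no 2 libraries of a group agreed within sampling noise. Sample numbers in the titles form 8 consecutive crushed and uncrushed pairs, which no label calls 1 animal. Deviations from the group means in log2 CPM over 19391 genes correlated at r = 0.156, 0.288 and 0.438 in the vehicle pairs and 0.0448 to 0.251 in the inhibitor pairs (description across genes, which are not independent). Each library was compared only with those of the same drug and the other condition, 3 with vehicle and 5 with the inhibitor. Within these, 14 of 16 libraries correlated best with their own pair, as some would by chance. The libraries of a pair share 1 r and do not count independently. All 8 were therefore treated as possible pairs and a blocked fit added, whereas the main tests ignore the pairing. The libraries that did not correlate best with their own pair were crushed DLKi replicate 2 and uncrushed DLKi replicate 4. Alternatives used DESeq2 1.42.0, limma 3.58.1 on log2(nRPKM + 0.1), other size factors and filters, the groups of a comparison alone, and libraries left out.

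From each list, up to 4 called genes with the smallest p are named in a comparison, or 2 where none was called. Likeness was ranked among genes averaging at least 1 CPM. The genes, lists and tests were chosen with earlier results of these data known.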

Additional observations from a re-analysis of the deposited data

Results flagged for a closer look

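The summed level of 10 microglia and macrophage markers was checked for libraries far from the others of their group, together with the levels of the 8 genes and 3 other marker lists, in 24 groups of 5 libraries. In uncrushed DLKi retina replicate 1 stood apart, at 22.57 nRPKM against 14.81 to 16.83 in the other 4. Chance marks about 5% of such groups. None of the 8 genes had a library that far from its group. In that library Sox11 stood at 0.304, Klf6 at 6.12 and Myc at 0.332 nRPKM, within the range of the other 4 for Sox11 and Klf6 and the highest by a small margin for Myc.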

How the results depend on the processing

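Of 1016 values of the 8 genes recomputed under 26 alternative settings, 1011 kept their direction where called and their side of the threshold, 3 lost a call, 2 gained one and 0 reversed. Among values not called in either fit, 55 changed sign, over 16 pairs of gene and comparison. Without the 4 lens-rich libraries, a choice made after seeing the data, 1 gene (Sox11) in place of 3 was called after crush with the inhibitor, and 2 (Sox11 and Klf6) with vehicle. That setting has fewer samples, and the cause was not tested further. By DESeq2 2 genes (Sox11 and Sox12) in place of 0 were called between the drugs in crushed retina, and the cause was not tested.

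Counts over all genes moved more. After crush with vehicle 510 were called, against 281 with only those groups fitted, 232 without the lens-rich libraries and as few as 276 with 1 library left out. With the inhibitor 1034 became 260 without the lens-rich libraries. Between the drugs, 98 in crushed retina became 401 by DESeq2, 45 with only those groups, 53 without the 2 shallowest vehicle libraries, 52 without the lens-rich ones and 22 without crushed vehicle replicate 1. In uncrushed retina 122 became 623 by DESeq2, 3 with only those groups, 11 without the 2 shallowest, 7 without the lens-rich ones, and 17 to 205 with 1 library left out. For the difference of crush effects 2 became 5 by DESeq2, 1 without the 2 shallowest and 0 without the lens-rich ones. Depth limits Myc and Klf4, with 23 to 124 reads per library.

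The pair block (consecutive sample numbers as pairs, chosen after seeing the data) kept 3 of the 8 genes called after crush with each drug, and 0 for the difference of crush effects, where Sox11 had -0.80 (edgeR adjusted p = 0.305). Over all genes it raised the calls from 510 to 1234 with vehicle, from 1034 to 2080 with the inhibitor and from 2 to 3 for the difference. With the inhibitor, whose pairs did not all deviate together, list calls gained were Sox8, Sox9, Tfrc (lower), Pou4f1 (lower), Tsc22d3 and Thra (lower), Dusp1, Cebpb and Egr1. Pou4f1 was also called for the difference (1.14, edgeR adjusted p = 0.0226). The comparisons of the 2 drugs lie between pairs and could not be blocked.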
